A study of Mus musculus with 61 samples.

Results

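Glucagon, the hormone of the pancreatic α cell, was read here together with 5 genes that mark α cells, in mouse ductal organoids driven to express endocrine transcription factors. The 6 genes were Gcg, Irx1, Irx2, Pou3f4, Ttr and Gc. They were taken by name, as genes known from α cells. All 6 had at least 1 read count, out of 46078 genes in the count table, and 5 of the 6 entered the tests over 24004 genes. Irx1 did not pass the filter on low counts, and Pou3f4 passed it only through libraries with Ngn3.

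The organoids were cultures of pancreatic ductal cells from C57BL/6 mice. The cultures were infected with inducible lentiviral vectors that each expressed a factor together with a fluorescent reporter: GFP with Ngn3 in its wild-type (WT) or phospho-mutant (6SA) form, LSSOrange with Pdx1 and tdTomato with MafA. After 8 days of transgene induction, pools of 50 cells were sorted by fluorescence into those with Pdx1 alone, MafA alone, Pdx1-MafA, Ngn3-Pdx1, Ngn3-MafA or Ngn3-Pdx1-MafA, each from WT and from 6SA cultures, which gave 12 conditions. The cells without Ngn3 came from the same infected and induced cultures as the Ngn3 cells, so that no condition was free of transgenes, and a pool was defined by its reporters rather than by an endocrine marker. Replicates 1 and 2 were at passage 2 and replicate 3 at passage 5. Nothing in the labels tied the replicates to separate animals, so that p-values measured the spread between these samples only.

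Of 61 libraries, 58 had over 1000000 gene counts and were kept. Technical repeats of one replicate were summed, which left 32 samples, 17 with Ngn3 and 15 without, with 2579583 to 19461008 gene counts each (median 8490759). WT Pdx1, 6SA Pdx1 and WT MafA had 2 samples each, as did 6SA Ngn3-Pdx1-MafA after replicate 3 was left out. All samples of these conditions were at passage 2, so that their comparisons with other conditions also differ in passage. Levels are given as CPM, gene counts scaled to a library of 1000000 after TMM normalization. The summed level of 7 duct markers was 10240 to 56797 CPM without Ngn3 and 1388 to 16498 CPM with Ngn3. With pools of 50 cells, fewer cells of a type and less RNA per cell cannot be told apart, and limits from a count of 0 cover counting error only.

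In the pancreas, proglucagon is cut by the convertase Pcsk2 to glucagon, which raises blood glucose through release from the liver. Ngn3, a basic helix-loop-helix factor that binds E-boxes, starts the endocrine programme as a whole, from which all islet cell types arise. Pou3f4 and the Iroquois factors Irx1 and Irx2 are homeobox regulators that mark α cells, while Ttr and Gc encode secreted carrier proteins made by α cells and also by the liver.

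The region upstream of a gene's start shows which of these factors have their short recognition letters there. The 250 bases before the RefSeq start (GRCm38.p6) are shown for the hormone gene, for Pou3f4 and for Gc. Among the kept libraries Pou3f4 was counted only with Ngn3, with no edgeR call in the main fit, and Gc fell when Ngn3 was present. Capitals mark E-boxes, searched as CANNTG, which reads the same on both strands. Gcg lies at chr2:62483654-62483903 on the minus strand, Pou3f4 at chrX:110814129-110814378 on the plus strand, where the RefSeq start lies inside the gene's Ensembl span, and Gc at chr5:89457899-89458148 on the minus strand.
Gcg: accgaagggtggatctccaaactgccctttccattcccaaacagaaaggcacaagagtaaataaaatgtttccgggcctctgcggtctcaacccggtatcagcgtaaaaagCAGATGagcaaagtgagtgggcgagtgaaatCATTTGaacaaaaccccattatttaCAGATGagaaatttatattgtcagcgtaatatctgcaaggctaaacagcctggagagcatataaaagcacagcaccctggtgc
Pou3f4: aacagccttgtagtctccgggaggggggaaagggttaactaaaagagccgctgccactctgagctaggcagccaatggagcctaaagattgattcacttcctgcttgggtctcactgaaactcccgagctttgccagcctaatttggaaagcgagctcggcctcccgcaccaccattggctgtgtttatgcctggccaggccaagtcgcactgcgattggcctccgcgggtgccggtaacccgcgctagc
Gc: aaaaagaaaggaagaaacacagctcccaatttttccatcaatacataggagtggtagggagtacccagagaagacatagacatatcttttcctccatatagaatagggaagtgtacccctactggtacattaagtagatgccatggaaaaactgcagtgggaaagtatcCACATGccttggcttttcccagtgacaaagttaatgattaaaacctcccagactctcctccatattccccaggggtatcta

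The Gcg window held 3 E-boxes, at positions -139, -108 and -83 relative to the start, and the outer pair had the same letters, CAGATG. The Gc window held 1 E-box and the Pou3f4 window none. An E-box occurred in 66.2% of 32851 promoter windows of the same length in the RefSeq table, so that having one was the usual state. The homeobox core TAAT, searched on both strands, occurred 2 times upstream of Gcg, 3 times upstream of Gc and 1 time upstream of Pou3f4, and in 54.9% of all windows. TGCTGA, part of the MAF recognition site, was in none of these 3 windows and in 16.1% of all. Irx2 had 1 E-box, also CAGATG, and neither other motif. Such matches are a description of letters in a short window, and their use in these cells was not measured.

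Gcg (ENSMUSG00000000394), the proglucagon gene itself, was read in quantity in 2 of 58 libraries. It lies on chromosome 2 between 62474530 and 62483650 on the minus strand. The 2 libraries held 6643 of all 6657 Gcg counts, or 99.8%, and the other 56 libraries held 14 counts in all with at most 7 in one. Both came from Ngn3-MafA cells. One was WT Ngn3-MafA replicate 3, at passage 5, with 2374 counts, and the other was the first technical repeat of 6SA Ngn3-MafA replicate 2, at passage 2, with 4269 counts. They differed in culture, replicate and passage.

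By sample, Gcg in Ngn3-MafA cells was 0, 0 and 359 CPM in WT and 0, 443 and 1.07 CPM in 6SA. Replicates of one condition thus ranged from no count to 4269 counts. Across the 6 Ngn3-MafA samples the mean was 133.9 ± 209 CPM (SD, n = 6) and the median was 0.535 CPM. In Ngn3-Pdx1 cells 2 of 6 samples had 1 count each, and in Ngn3-Pdx1-MafA cells 0 of 5 samples had any, which allows a level of up to 0.309 CPM (3 counts per sample, averaged over samples). Without Ngn3, Gcg had 3 counts in 1 Pdx1 sample, 1 count in each of 2 Pdx1-MafA samples and none in MafA cells.

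Technical repeats of one replicate did not give the same Gcg level. In 6SA Ngn3-MafA replicate 2 the first repeat gave 527 CPM (4269 of 7440620 gene counts). The second gave 0 of 1403177 gene counts, which allows up to 1.963 CPM. The same pair of repeats differed in other hormones in the opposite sense: ghrelin (Ghrl) was 2951 and 15441 CPM, somatostatin (Sst) 2296 and 11259 CPM, and pancreatic polypeptide (Ppy) 0.86 and 66.1 CPM. The labels do not say whether repeats were separate pools of cells.

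**Figure D1:**
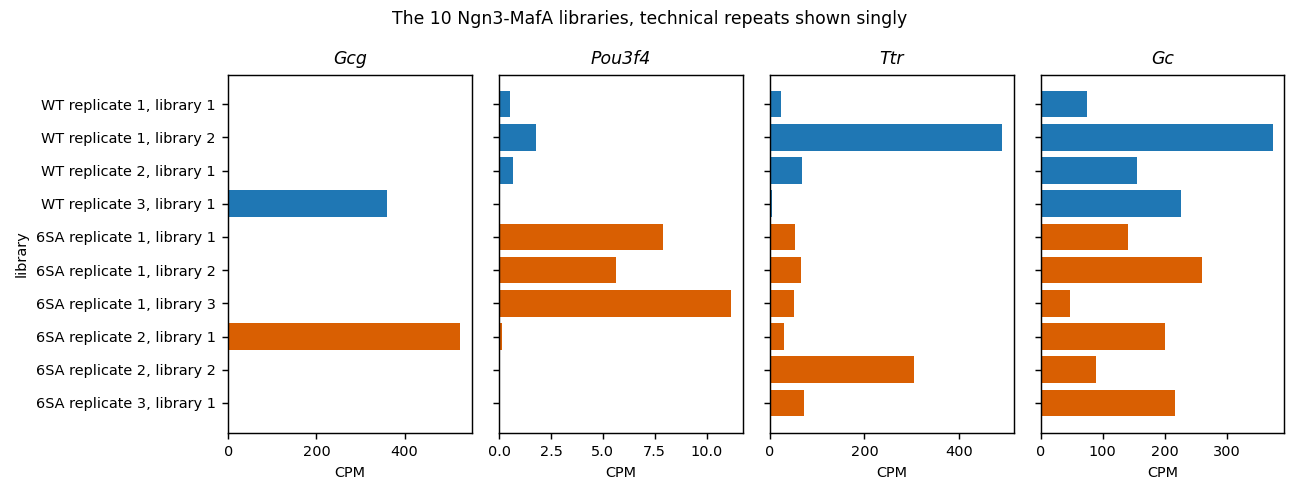
Levels of Gcg, Pou3f4, Ttr and Gc (CPM, horizontal axes from 0) in the 10 libraries of Ngn3-MafA cells, with each technical repeat as 1 bar, WT in blue and 6SA in orange. Gcg stands at 359 and 527 CPM in 2 libraries, and Pou3f4 at 5.64 to 11.2 CPM in the 3 repeats of 6SA replicate 1.

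When Ngn3 was added to MafA, edgeR's quasi-likelihood test gave Gcg an adjusted p of 0.0145 and the mean rose at least 248-fold over the level that 3 counts per sample allow in MafA cells. Ngn3 with MafA against Ngn3-Pdx1-MafA gave an adjusted p of 0.0225 by the same edgeR test. Both calls rested on the 2 libraries: without replicate 2 the edgeR adjusted p was 0.281 and 0.395, and without replicate 3 the change could not be fitted, because WT Ngn3-MafA then had no Gcg count. The exact permutation test over samples, two-sided and on log2(CPM + 1), gave p = 0.32 for adding Ngn3 to MafA and p = 0.35 against Ngn3-Pdx1-MafA, where the smallest attainable p was 0.005. Against Ngn3-Pdx1 the pooled counts gave a ratio of 3393 (95% counting interval 939 to 28026, from 6650 and 2 counts). That interval covers counting error and not the spread between samples, and nearly all of the 6650 counts lay in the 2 libraries. For this comparison the edgeR adjusted p was 0.0567 without and 0.0173 with a replicate block, and the exact permutation p was 0.2. DESeq2 gave Gcg no adjusted p in these comparisons.

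Adding Ngn3 to MafA changed 2 of the 5 tested members, Gcg and Gc, where 4.67% of all genes were called (1121 of 24004; 2123 with the replicate block). Against Ngn3-Pdx1-MafA the call covered 1 of 5 members, Gcg, beside 2.72% of all genes (654 of 24004; 2038 with the replicate block). A call means an adjusted p under 0.05 in the edgeR test, with Benjamini-Hochberg adjustment over all genes tested.

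Pou3f4 (ENSMUSG00000056854), a POU-domain factor also known as Brn4, was read only in cells with Ngn3 among the kept libraries. It lies on chromosome X between 110814280 and 110817207 on the plus strand, and its upstream window is the one shown above without an E-box. All 29 libraries without Ngn3 had 0 counts, which allows a level of up to 0.431 CPM. Of the 29 libraries with Ngn3, 14 had a count and 9 had more than 3, for 233 counts in all.

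By sample, Pou3f4 was 1.21, 0.652 and 0 CPM in WT Ngn3-MafA and 8.61, 0.104 and 0 CPM in 6SA Ngn3-MafA. In Ngn3-Pdx1-MafA it was 0.081, 5.85 and 1.60 CPM in WT and 0 in both 6SA samples, and in Ngn3-Pdx1 it was at most 0.069 CPM in WT and 0.045, 0.581 and 1.75 CPM in 6SA. Every Ngn3 combination thus had samples with and samples without the transcript, and the groups with and without Ngn3 overlapped at 0. For 6SA Ngn3-MafA replicate 1 the 3 technical repeats had 54, 20 and 67 counts, or 7.90, 5.64 and 11.2 CPM, so that there the repeats lay close together.

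Over the 3 settings, mean Pou3f4 was 1.21 ± 2.39 CPM (SD, n = 17) with Ngn3, at least 2.81-fold over the level that 3 counts per sample allow without it. That bound holds for the mean only, which a few high samples carry. The median with Ngn3 was 0.081 CPM, under the 0.431 CPM that 3 counts per sample allow without Ngn3. The exact two-sided permutation test, with labels permuted within each culture and combination, gave p = 0.00202 for a difference of 0.66 on the log2(CPM + 1) scale. This test was added after the data had been seen, because edgeR could not fit the pooled change where conditions on both sides had no counts. Pou3f4 also entered the tested genes only through libraries with Ngn3. The p therefore restates the absence of counts without Ngn3 and is no separate support for it. Within single combinations the exact p was 0.16 for Pdx1, 0.11 for MafA and 0.1 for Pdx1-MafA, and the edgeR adjusted p was 0.0920 for MafA. All 60 permutation tests, 10 comparisons of each of 6 genes, are given without adjustment. No comparison among the Ngn3 combinations, nor that of 6SA with WT, passed for Pou3f4, with edgeR adjusted p-values from 0.328 upward where the change could be fitted.

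Gcg and Pou3f4 did not pass 3 counts in the same library. Of the 29 libraries with Ngn3, 3 had more than 3 Gcg counts, 9 had more than 3 Pou3f4 counts and 0 had both. Libraries with more than 3 Gcg counts had at most 1 Pou3f4 count, and those with more than 3 Pou3f4 counts had 0 Gcg counts. In the other 17 libraries neither gene had more than 3 counts. Technical repeats are counted singly here, and all 3 repeats of 6SA Ngn3-MafA replicate 1 are among the libraries with more than 3 Pou3f4 counts. With so few libraries, unrelated genes could also have none in common, and an avoidance between the genes was not tested. Over the 32 samples, which differ in depth, Pearson's r of log2(CPM + 1) was -0.11 between Gcg and Pou3f4, given as a description.

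**Figure D2:**
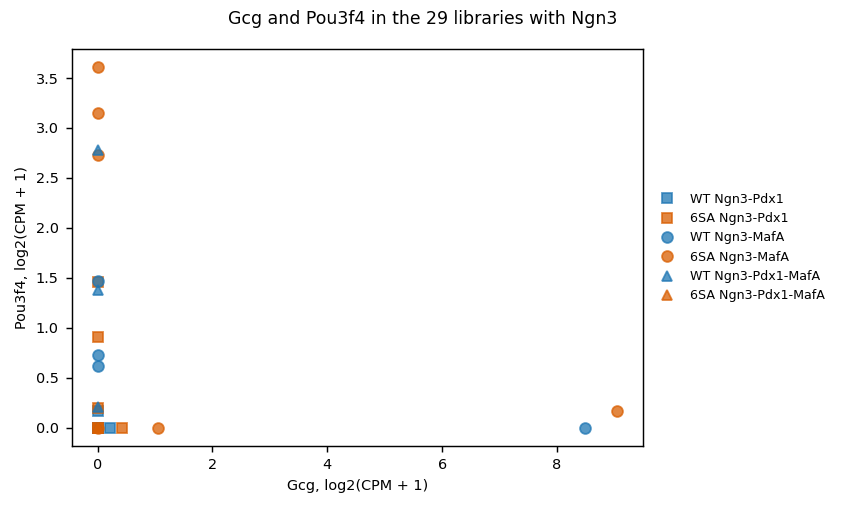
Each point is 1 of 29 libraries with Ngn3, on log2(CPM + 1) axes, with Pou3f4 (vertical) against Gcg (horizontal); shapes give the combination, blue is WT and orange 6SA. Points lie along either axis, with none high on both, and the 2 libraries at 359 and 527 CPM of Gcg lie at the far right, near 0 for Pou3f4.

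The Iroquois factors stayed low in all conditions. Irx1 (ENSMUSG00000060969; chromosome 13 between 71957921 and 71963723, minus strand) had 2 counts in 58 libraries, 1 in WT Pdx1-MafA replicate 1 and 1 in WT Ngn3-Pdx1-MafA replicate 1. It was not detectable at this depth in the other 30 samples. Irx2 (ENSMUSG00000001504; chromosome 13 between 72628820 and 72634198, plus strand) had 390 counts over 42 of 58 libraries, and never more than 33 in one.

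Irx2 was 0 to 4.38 CPM (median 0.672) in the 15 samples without Ngn3 and 0 to 4.39 CPM (median 1.66) in the 17 with Ngn3. The ranges covered each other. The edgeR change over the 3 settings was 0.36 (SE 0.74, 95% interval -1.15 to 1.87, adjusted p = 0.966), so that the data leave room for a change of either sign. By combination the mean was lowest in Pdx1 cells, at 0.657 ± 0.922 CPM (SD, n = 4), and highest in Ngn3-Pdx1 cells, at 1.86 ± 1.22 CPM (SD, n = 6), with an exact permutation p of 0.18 between them. Of the 4 other Iroquois genes, Irx3 and Irx5 passed the filter and neither was called in any comparison; Irx4 had 2 counts and Irx6 none.

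**Figure D3:**
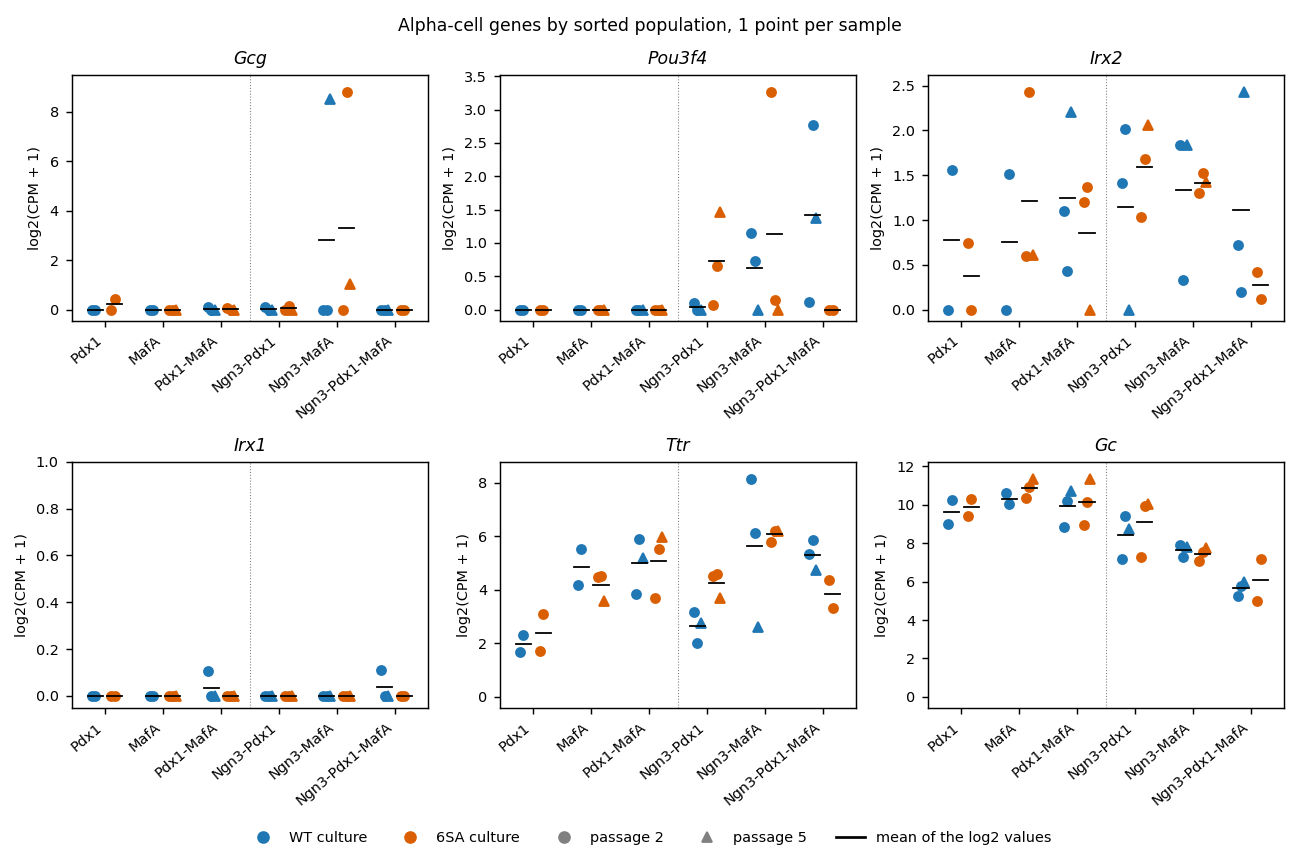
Levels of the 6 genes on a log2(CPM + 1) axis in the 6 sorted combinations, with 1 point per sample, WT in blue, 6SA in orange, circles at passage 2 and triangles at passage 5; bars are means of the log2 values and the dotted line divides cells without from cells with Ngn3. Gcg is at most 1.07 CPM in all but 2 samples, Pou3f4 is 0 in all 15 samples left of the line, and Gc steps down on the right.

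Ttr encodes transthyretin, which carries thyroxine and, through retinol-binding protein, vitamin A. It was counted in 57 of 58 libraries, with or without Ngn3. Ttr was lowest in Pdx1 cells, at 2.16 and 3.91 CPM in WT and 2.30 and 7.43 CPM in 6SA. In MafA cells it was 17.04 and 44.4 CPM in WT and 21.2, 21.9 and 10.8 CPM in 6SA. All 5 MafA samples lay above all 4 Pdx1 samples. The 6 Pdx1-MafA samples ranged from 12.01 to 62.3 CPM with a median of 40.1 CPM, and also lay above every Pdx1 sample.

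With Ngn3, the level was again lowest in the combination with Pdx1 alone, while Ngn3-MafA and Ngn3-Pdx1-MafA stood in the opposite order to MafA and Pdx1-MafA. Ngn3-Pdx1 gave 3.03 to 22.8 CPM (median 9.92, n = 6), Ngn3-Pdx1-MafA gave 39.3, 57.6 and 25.4 CPM in WT and 19.4 and 8.94 CPM in 6SA, and Ngn3-MafA gave 5.14 to 279.7 CPM (median 70.7, n = 6). In Ngn3-MafA, 5 of 6 samples were above every Ngn3-Pdx1 sample, and the remaining one was WT replicate 3, one of the 2 samples high in Gcg. Neighbouring combinations overlapped.

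The difference between Ngn3-MafA and Ngn3-Pdx1 was the one Ttr change that edgeR called, at a log2 fold change of 3.10 (SE 0.60, adjusted p = 0.0182). It was 1 of 5 members, where 0.133% of all genes (32 of 24004; 216 with the replicate block) were called. The exact permutation p was 0.015. One library carried much of its size: the second technical repeat of WT Ngn3-MafA replicate 1 had 3341 Ttr counts, or 491 CPM, against 127 counts, or 22.7 CPM, in the first repeat. Without that library the log2 fold change was 2.16 (edgeR adjusted p = 0.0767), and without replicate 2 the adjusted p was 1.

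The same library stood apart in other genes. It had 314 CPM of albumin (Alb), 163 CPM of the collagen gene Col1a1, 31.3 CPM of Col3a1 and 27.9 CPM of Serpina1a, where the other 9 Ngn3-MafA libraries had at most 132 CPM of Alb, 10.2 CPM of Col1a1, 0.18 CPM of Col3a1 and 1.97 CPM of Serpina1a. The summed level of 6 hepatocyte markers was 13.1 to 241 CPM in Ngn3-MafA samples and 5.91 to 99.5 CPM in Ngn3-Pdx1 samples, with 5 of 6 markers counted and Tat at 0 in both. Their part in the Ttr difference was not tested. Of 3 choroid plexus markers, Folr1 and Otx2 were at 0 in both groups, and Kl had a mean of 1.71 CPM in Ngn3-MafA and 3.94 CPM in Ngn3-Pdx1 samples. In the other Ngn3-MafA sample with repeats that differed, 6SA replicate 2, Ttr was 29.2 CPM in the repeat with Gcg and 305.5 CPM in the repeat without.

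For MafA against Pdx1 without Ngn3, edgeR gave Ttr a log2 fold change of 2.64 (SE 0.72, 95% interval 1.16 to 4.11) with an unadjusted p of 0.001 and an adjusted p of 1. The exact permutation p was 0.0167, the smallest that this design allows. Here edgeR called 0 of the 3 members that could be fitted and 0% of all genes, while 675 genes, and 1 member, Ttr, had an unadjusted p under 0.05; DESeq2 called 26 genes and 0 members. Adding Ngn3 moved Ttr by 1.45 (SE 0.67) on the log2 scale with Pdx1, 1.92 (SE 0.62) with MafA and -0.65 (SE 0.59) with Pdx1-MafA, with edgeR adjusted p-values of 0.378, 0.0770 and 0.501. The exact permutation p-values, unadjusted, were 0.03, 0.22 and 0.47. With MafA the edgeR adjusted p fell under the threshold with the replicate block (0.0318). Without the library with 3341 counts the change with MafA was 0.98 (edgeR adjusted p = 0.390). Ngn3-Pdx1-MafA was below Ngn3-MafA by a log2 value of -1.88 (SE 0.62), with an edgeR adjusted p of 0.0918, and 0.0387 with the replicate block; without the library with 3341 counts it was -0.94 (adjusted p = 0.346).

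Ttr (ENSMUSG00000061808) lies between 20665280 and 20674321 on the plus strand of chromosome 18. Its partner in retinol transport, Rbp4, rose with Ngn3 over the 3 settings by 2.27 on the log2 scale (SE 0.37, edgeR adjusted p = 4.3e-05), but with MafA its change was 0.28 (SE 0.60) and did not pass. Of 4 carrier genes on one list, Alb and Rbp4 rose over the 3 settings, where 2658 of all 24004 genes rose; Afp did not pass and Afm, from the same family as Gc, could not be fitted. By setting, the call was Rbp4 with Pdx1, Alb with MafA and Rbp4 with Pdx1-MafA.

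Gc (ENSMUSG00000035540), which encodes the vitamin D-binding protein, had the highest levels of the 6 genes in counts and fell when Ngn3 was present. It lies on chromosome 5 between 89417522 and 89457898 on the minus strand. Without Ngn3 it was 512 and 1226 CPM in WT and 692 and 1278 CPM in 6SA Pdx1 cells. In MafA cells it was 1561 and 1054 CPM in WT and 1330, 1946 and 2578 CPM in 6SA, and the 6 Pdx1-MafA samples ranged from 465 to 2595 CPM (median 1158). These groups overlapped, and MafA against Pdx1 gave a log2 fold change of 0.79 (SE 0.54) with an exact permutation p of 0.0833.

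With Ngn3, Gc spanned 145.5 to 1037 CPM (median 555) in the 6 Ngn3-Pdx1 samples and 132 to 239 CPM (median 199.7) in the 6 Ngn3-MafA samples. In Ngn3-Pdx1-MafA it was 37.0, 53.8 and 62.0 CPM in WT and 30.8 and 142 CPM in 6SA. All Ngn3-MafA samples lay below all MafA samples, and all Ngn3-Pdx1-MafA samples lay below all Pdx1-MafA samples. Ngn3-Pdx1 and Pdx1 samples overlapped as groups, but in each of the 4 same-numbered pairs Gc was lower with Ngn3. It was 145.5 against 512 and 690 against 1226 CPM in WT, and 157 against 692 and 991 against 1278 CPM in 6SA.

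Mean Gc fell from 1258 ± 802 CPM (SD, n = 6) in Pdx1-MafA to 65.1 ± 44.7 CPM (SD, n = 5) in Ngn3-Pdx1-MafA cells. The edgeR log2 fold change was -4.23 (SE 0.59, adjusted p = 1.2e-05; exact permutation p = 0.005). Adding Ngn3 to MafA took it from 1694 ± 593 CPM (SD, n = 5) to 192 ± 42.4 CPM (SD, n = 6), a log2 fold change of -3.06 (SE 0.51, edgeR adjusted p = 0.00033; exact permutation p = 0.005). With Pdx1 the change was -0.75 (SE 0.50, 95% interval -1.78 to 0.29, edgeR adjusted p = 0.614), and here edgeR called 0 of 5 members beside 1.49% of all genes (358 of 24004; 1011 with the replicate block); 1 member, Ttr, had an unadjusted p under 0.05, and DESeq2 called none. Adding Ngn3 to Pdx1-MafA changed 1 of the 4 members that could be fitted, Gc, against 17.8% of all genes. Over the 3 settings Gc was again the 1 called, of 3 fitted, beside 21.5% of all genes, at a log2 fold change of -2.68 (SE 0.30, adjusted p = 1.5e-07). Ttr, at 0.91 (SE 0.35, edgeR adjusted p = 0.0697), joined it with the replicate block (adjusted p = 0.0382), and was 0.12 without replicate 1 and 0.59 without the library with 3341 Ttr counts.

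The test of whether Gc fell further with MafA than with Pdx1 did not pass. The difference of the changes was -2.32 (SE 0.72) on the log2 scale, with an unadjusted p of 0.0032 and an adjusted p of 1. In this comparison 0 of 3 fitted members and 0% of all genes were called by edgeR; 820 genes, and 1 member, Gc, had an unadjusted p under 0.05, and DESeq2 called 19 genes and 0 members.

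Among cells with Ngn3, Gc was lower in Ngn3-Pdx1-MafA than in Ngn3-Pdx1 by a log2 value of -3.06 (SE 0.55, edgeR adjusted p = 0.0024; exact permutation p = 0.01), with no overlap of samples. It was 1 of 5 members called, beside 1.88% of all genes. Without replicate 2 the edgeR adjusted p of this difference was 0.198, and that of adding Ngn3 to MafA was 0.0599. Against Ngn3-MafA the value was -1.53 (SE 0.51) with an edgeR adjusted p of 0.0956, and 0.00749 with the replicate block; the exact permutation p was 0.01. Ngn3-MafA against Ngn3-Pdx1 gave -1.53 (SE 0.47) and an edgeR adjusted p of 0.252.

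Among the duct markers, Spp1, Krt19 and Cftr fell with Ngn3 over the 3 settings, and Krt7, Epcam and Sox9 did not pass. Most of the summed level of the markers was Spp1, with a mean of 17302 CPM without and 3248 CPM with Ngn3, while Sox9 had means of 138.7 and 124.5 CPM. The summed median was 19499 CPM in Pdx1-MafA, 8048 CPM in Ngn3-Pdx1, 4724 CPM in Ngn3-MafA and 1852 CPM in Ngn3-Pdx1-MafA cells, and all 7 were counted in each. The gene most like Gc over the 32 samples was one of these markers, Spp1 (osteopontin), with Pearson's r of 0.94 on log2(CPM + 1), followed by Nfkbiz (0.93) and Anxa4 (0.92). The part of duct cells in the Gc change was not tested. The 6 hepatocyte markers had a summed median of 7.43 CPM without and 34.2 CPM with Ngn3, most of it Alb (mean 8.68 and 44.1 CPM). Fgb had a mean of 4.17 CPM without and 1.56 CPM with Ngn3, Serpina1a was at 0 without Ngn3, and Tat was at 0 in both.

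**Figure D4:**
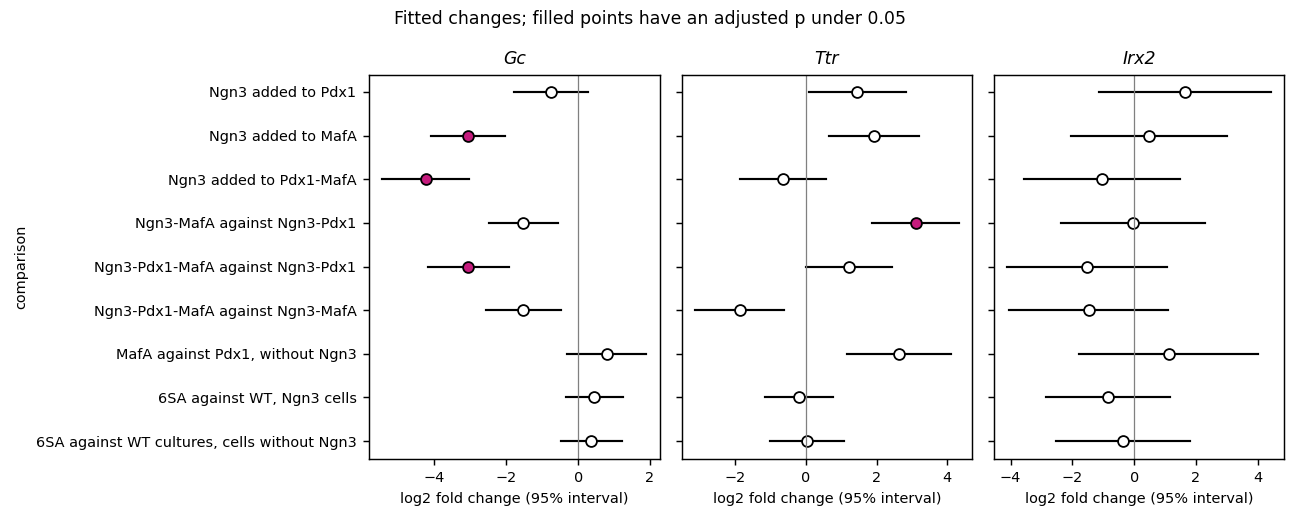
Fitted log2 fold changes of Gc, Ttr and Irx2 in 9 comparisons (rows), with 95% intervals as lines; filled points have an edgeR adjusted p under 0.05. Gc lies between -4.23 and -3.06 at its 3 filled points, Ttr has 1 filled point at 3.10, and the Irx2 intervals all cover 0.

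No difference between WT and phospho-mutant cultures in these genes passed a test. In Ngn3 cells, 6SA against WT gave log2 values of 0.45 (95% interval -0.35 to 1.24) for Gc, -0.21 (-1.17 to 0.76) for Ttr and -0.85 (-2.85 to 1.14) for Irx2. The Ttr value turned to 0.42 without the Ngn3-MafA library with 3341 Ttr counts. Exact permutation p-values were 0.55 for Gcg and 0.894 for Pou3f4. Called by edgeR were 0 of 4 fitted members and 0% of all genes; 1421 genes and 0 members had an unadjusted p under 0.05, and DESeq2 called 26 genes and 0 members. In cells without Ngn3 edgeR again called 0 of 3 fitted members and 0% of genes, with 591 genes and 0 members at an unadjusted p under 0.05 and 8 genes and 0 members called by DESeq2. The intervals still allow a change of 1 log2 unit in Gc, upward, and in Ttr, downward.

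The regulators and processing enzymes that surround glucagon were mostly higher with Ngn3. On a list of 8 regulators of glucagon or of islet cell fates, 6 rose over the 3 settings and 0 fell, where 2658 of all 24004 genes rose and 2510 fell: Isl1, Neurod1, Nkx2-2, Nkx6-1, Pax4 and Pax6. Pax6, a paired homeobox factor that binds the glucagon promoter, rose by 6.92 on the log2 scale (SE 0.67), and Neurod1, a direct target of Ngn3, by 10.33 (SE 0.56). Pax4, which favours β and δ cells, rose as well, as did Nkx6-1, a β-cell factor. By setting, Nkx6-1 was called with Pdx1-MafA and not with Pdx1 or MafA. Its mean was 0.900 CPM in MafA and 0.766 CPM in Ngn3-MafA cells. The forkhead factors Foxa1 and Foxa2 did not pass.

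Among 8 genes for proglucagon processing and for receptors of its products, 5 rose and 1 fell over the 3 settings, beside 2658 and 2510 of all 24004 genes, and the receptors Gcgr and Glp1r could not be fitted. For adding Ngn3 to Pdx1-MafA alone, where 17.8% of all genes were called, Gcgr was called higher. Its mean there was low, 0 CPM without and 0.573 CPM with Ngn3. Pcsk2, the convertase that releases glucagon, went from 0.47 ± 0.44 CPM (SD, n = 15) to 470 ± 351 CPM (SD, n = 17). Its chaperone Scg5, the convertase Pcsk1, its inhibitor Pcsk1n and carboxypeptidase E (Cpe) rose with it, and Dpp4, a peptidase that cleaves incretins, fell. The processing enzymes serve all endocrine cells. Of the 8 regulators, edgeR called 0 between Ngn3-MafA and Ngn3-Pdx1 cells, beside 0.133% of all genes. It also called 0 between Ngn3-Pdx1-MafA and Ngn3-MafA cells, beside 2.72%. With shares this low, equal levels cannot be read from it. Mean Pax4 was 4.28 CPM in Ngn3-MafA, 21.5 CPM in Ngn3-Pdx1 and 28.8 CPM in Ngn3-Pdx1-MafA cells, while Nkx2-2 was 12.9, 9.52 and 9.40 CPM. Sst was counted in every library with or without Ngn3, at 1314304 counts in all with and 942 without, and Ghrl in 29 of 29 libraries with and 25 of 29 without, at 274044 and 176 counts.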

How the data were processed

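Pools of 50 sorted cells were sequenced, and per the labels reads were aligned with GSNAP to mm10 and counted per gene with HTSeq 0.5.3p3. The deposited values are raw read counts per Ensembl gene and library, and the strand setting is not given in the sources used here. No annotated gene (GENCODE M21, GRCm38) overlapped any of the 6 genes. Rows naming no gene held 33.9% to 67.3% of reads and were left out. Libraries with over 1000000 gene counts were kept, technical repeats summed, and a gene was kept when 5 or more libraries detected it and its variance exceeded 0.001. Counts were fitted over all 12 conditions with edgeR 4.0.16 in R 4.3.3 (TMM scaling, quasi-likelihood test, Benjamini-Hochberg adjustment); DESeq2 1.42.0 was an alternative. SEs were derived from the F statistic and intervals from its degrees of freedom; neither is given where a condition had no count. Single genes were tested by exact two-sided permutation of sample labels within culture on log2(CPM + 1). Scripts were tested on simulated data. Some regulators are not reported here. The 6 genes, the lists and the named comparisons were chosen with earlier results of these data known. Genes named besides the 6 are list members, the 3 genes most correlated with each of the 6, and genes singled out after their values were seen (Alb, Col1a1, Col3a1, Serpina1a, Ghrl, Sst and Ppy by library).

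Replicate numbers are shared between conditions and follow the passage given in the labels. Same-numbered samples deviated together in every pair for Ngn3-Pdx1 and Pdx1 (4 pairs, r 0.52 to 0.76), Ngn3-MafA and MafA (5, 0.23 to 0.44), Ngn3-MafA and Ngn3-Pdx1 (6, 0.16 to 0.63), Ngn3-Pdx1-MafA and Ngn3-MafA (5, 0.14 to 0.44) and MafA and Pdx1 (4, 0.43 to 0.79), and for these the value with a replicate block is given where it changes a call; the main fit and the permutation tests do not pair samples. For Ngn3-Pdx1-MafA and Pdx1-MafA (-0.42 to 0.33) and Ngn3-Pdx1-MafA and Ngn3-Pdx1 (-0.33 to 0.48) they did not.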

Additional observations from a re-analysis of the deposited data

Results flagged for a closer look

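Pou3f4 had 6 counts in a library that was left out for its low total, 6SA Ngn3-Pdx1-MafA replicate 3, of 408733 gene counts (14.7 CPM on the plain total). On plain totals it is the highest Pou3f4 level among all libraries with Ngn3, while the 15 samples without Ngn3 had none, and it is the one library of that condition with a Pou3f4 count. With all libraries included, edgeR called Pou3f4 for adding Ngn3 to Pdx1-MafA.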

How the results depend on the processing

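Calls per comparison among the 6 genes moved as follows. For Ngn3 over the 3 settings, 1 gene (Gc) became 2 (with Ttr) under DESeq2, RLE size factors, no gene filter and either replicate block, and 3 (with Pou3f4) with all libraries; leaving out 1 replicate number gave 1 to 2. Adding Ngn3 to Pdx1 went from 0 to 1 (Ttr) without the gene filter. Adding Ngn3 to MafA went from 2 to 3 (with Ttr) with either replicate block, to 4 without the filter, and to 0 to 2 with 1 replicate left out. Adding Ngn3 to Pdx1-MafA went from 1 to 2 (Pou3f4) with all libraries. Ngn3-MafA against Ngn3-Pdx1 went from 1 to 2 with DESeq2 and with either replicate block, to 3 without the filter, to 0 with the first technical repeat alone and to 0 to 3 with 1 replicate left out; without the second repeat of WT Ngn3-MafA replicate 1, chosen after seeing the data, the call passed from Ttr to Gcg (edgeR adjusted p = 0.0408). Ngn3-Pdx1-MafA against Ngn3-Pdx1 gave 0 to 1 with 1 replicate left out. Ngn3-Pdx1-MafA against Ngn3-MafA went from 1 to 2 with DESeq2 (Gc and Ttr, since DESeq2 gave Gcg no adjusted p), with all libraries and with the replicate block within culture, to 3 without the filter and with the replicate block, and to 0 to 1 with 1 replicate left out. MafA against Pdx1 and the difference of Ngn3 effects each went from 0 to 1 without the filter. The paired fits with a replicate block changed no other call. Gc kept its direction in each alternative for each of its calls, and lost a call only without replicate 2. No called single-gene change reversed.

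Counts over all genes moved by more than 1.5 times: 5168 to between 2085 and 6620 for Ngn3 over the 3 settings, 358 to 16 to 1273 for Pdx1, 1121 to 138 to 2123 for MafA, 4279 to 880 to 5529 for Pdx1-MafA, 32 to 0 to 634, 451 to 16 to 1454 and 654 to 0 to 2137 among the Ngn3 combinations, and from 0 up to 239, 8, 113 and 126 for 6SA with and without Ngn3, MafA against Pdx1 and the difference of effects. Each of the first 7 low ends came without replicate 2. Fewer samples are fitted there, as is also so without replicate 1, and why the low ends came with replicate 2 was not tested. RLE scaling moved the median log2 change of all genes for adding Ngn3 to Pdx1-MafA from 0.05 to 0.17. Other pseudocounts or plain totals left the Gcg permutation p between 0.2 and 0.35. At the lowest sample total, 3 counts are 1.01 CPM, so Irx1, Irx2 and most Pou3f4 values lie near what the depth can show.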

Other observations

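The genes most like each of the 6 over the 32 samples, by Pearson's r of log2(CPM + 1) and with no test, share libraries and depth. For Gcg they were A230005M16Rik (0.87), Grid1 (0.83) and Gm15167 (0.82), counted in 4, 4 and 6 samples. Each had its maximum in 6SA Ngn3-MafA replicate 2. Grid1, a glutamate receptor family member, reached 11.5 CPM there. For Pou3f4 they were Gm14097 (0.84), the prolactin receptor Prlr (0.83) and March10 (0.82), counted in 6, 5 and 4 samples, each highest in 6SA Ngn3-MafA replicate 1. Each of these 6 genes was at 0 in at least 26 of the 32 samples. For Ttr, Calml4 (0.61), Serpind1 (0.60), a liver serpin, and Nagpa (0.59) came first, and for Irx2 no gene passed 0.64.

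Technical repeats of one sample differed more in Ttr than in Gc. Over the 16 samples in which it could be formed, the ratio of the highest to the lowest repeat had a median of 3.41 for Ttr and reached 50.9, in WT Pdx1-MafA replicate 1. For Gc, over 17 samples, the median was 1.80 and the highest 16.3, in WT Ngn3-Pdx1-MafA replicate 1. For Irx2 the median was 2.90 over 9 samples.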
